A study of Mus musculus with 8 samples.

Results

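Mouse astrocytes that carried floxed alleles of Yap1 and Wwtr1 and had been exposed to an active form of HER2 and to 4-hydroxytamoxifen (4OH-TAM) for 15 days were compared with control astrocytes. The comparison was made across all 13607 genes of the count table. It takes 4 of the 8 libraries of the series, the 2 whose titles name HER2CA, TAM and day 15 and the 2 whose titles name control astrocytes, so the libraries were chosen by their labels and not by any measured value. All 8 libraries came from cells of the C57BL/6J background with the genotype Yapf/f;Tazf/f. In the 4OH-TAM group, lentiviral particles had delivered doxycycline-inducible HER2CA, the reverse tetracycline transactivator rtTA and the tamoxifen-activated recombinase CreERT2, and the cells received doxycycline together with 1 µM 4OH-TAM. Control cells had no doxycycline and are labelled untreated. Both groups grew in DMEM-F12 supplemented with N-2 and with the mouse growth factors EGF and bFGF, each at 20 ng/ml. The other groups, used here only where they bear on a result, were HER2CA day 15 cells given doxycycline and DMSO and HER2CA gliomaspheres harvested at 3 weeks, each with 2 libraries. The labels do not state if the control cells carried the lentiviral constructs or how long they were cultured. Doxycycline, HER2CA and 4OH-TAM changed together between the groups compared, and transduction and time in culture may have differed as well. The shares of these factors in any difference cannot be told apart.

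YAP and TAZ, the products of Yap1 and Wwtr1, are transcriptional co-activators that bind DNA through TEAD factors and are held in the cytoplasm when the Hippo kinases phosphorylate them. HER2, encoded by Erbb2, is a receptor tyrosine kinase that signals to the RAS and ERK cascade, and constitutively active forms transform cells in culture. Astrocytes supply neurons with metabolites, clear glutamate and potassium, and respond to injury or cytokines by changing their transcripts, a state called reactive. 4OH-TAM activates CreERT2, which then excises DNA between loxP sites.

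The 4 libraries compared held 22766369 to 24530415 counts, and all 8 held 15517708 to 28231426. Over all genes, the 2 replicates of a group lay 0.196 (4OH-TAM) and 0.233 (control) apart as the root mean square difference of log2 levels, and libraries of different groups lay 0.814 to 0.877 apart. The second gliomasphere library stood apart, with 36.1% of its counts in the ribosomal RNA precursor Rn45s against 0.984% to 2.92% elsewhere, and it enters the fit through the scaling and the shared estimate of the spread. Separate cultures are not named as the origin of the replicates, and the p-values rest only on their spread, which may be technical. Levels are CPM, a gene's count scaled to a common library total after the trimmed mean of M values adjustment, and SD is over n = 2. A gene was called when edgeR's quasi-likelihood test gave a Benjamini-Hochberg adjusted p under 0.05 over all genes. The table holds only genes that reached 1 CPM in some library, and in 14 of the 31 gene lists 1 to 6 members did so only in the 4OH-TAM libraries. Such members had to be higher there, so list counts and medians cover measured members and are descriptions. Where a list's count moved by over 1.5 times with no scaling factors, in a test against a 1.5-fold change or without 1 library, the moved count is given beside it.

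Astrocyte markers were present at high levels in both groups. Gfap, the intermediate filament protein that marks astrocytes, stood at 975 and 1416 CPM in control and at 3027 and 3127 CPM in 4OH-TAM. Slc1a3, the glutamate transporter GLAST, stood at 1766 and 1916 CPM in control and at 2981 and 3186 CPM in 4OH-TAM. In neither gene did the groups overlap, but this held for 82.5% of all genes, and the ranking by level below required it of Gfap. Both defining markers were abundant in every library compared.

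The floxed genes Yap1 and Wwtr1 were both lower in 4OH-TAM, and both transcripts stood at 103 CPM or more in every library compared. Yap1 (GRCm38, chr9:7931999-8004596, minus strand) stood at 144 and 136 CPM in control and at 107 and 103 CPM in 4OH-TAM. That is a log2 fold change of -0.42 (SE 0.068), a 1.34-fold fall called by edgeR's quasi-likelihood test (Benjamini-Hochberg adjusted p = 9.77e-05). Wwtr1 (chr3:57455649-57575910, minus strand), which encodes TAZ, stood at 177 and 168 CPM in control and at 123 and 122 CPM in 4OH-TAM, a log2 fold change of -0.50 (SE 0.069) in edgeR's quasi-likelihood test (adjusted p = 2.22e-05). The fall of Wwtr1 was 1.41-fold, and in both genes the groups did not overlap. In the HER2CA day 15 libraries without 4OH-TAM, Yap1 stood at 101 and 103 CPM, and 4OH-TAM differed from these by a log2 fold change of 0.04 (SE 0.068, adjusted p = 0.569 in edgeR's quasi-likelihood test). Wwtr1 stood at 194 and 210 CPM there and was lower in 4OH-TAM by a log2 fold change of -0.73 (SE 0.069, adjusted p = 1.25e-07 in edgeR's quasi-likelihood test). Gene totals include exons outside a floxed segment, and the position of the floxed exons is not known here, so these totals are a limited check of the label. The group is therefore named by its treatment and not as a knockout. With library totals and no scaling factors, the calls of Yap1 (log2 fold change -0.35, adjusted p = 0.505) and Wwtr1 (-0.43, adjusted p = 0.372) were lost in edgeR's quasi-likelihood test. With the second gliomasphere library also left out they returned, at adjusted p = 9.04e-05 and 1.19e-05. Erbb2 stood at 32.8 and 31.2 CPM in control and at 28.6 and 27.7 CPM in 4OH-TAM and was not called (log2 fold change -0.18, SE 0.086, adjusted p = 0.0813 in edgeR's quasi-likelihood test), although a fit of only the 2 groups called it (-0.19, adjusted p = 0.044). The species of the HER2CA sequence is not stated, so the Erbb2 total does not check the transgene.

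The comparison was broad, and large changes were mostly increases. Of the 13607 genes tested, 4221 were higher in 4OH-TAM (31.0%) and 3840 were lower (28.2%), 59.2% in all. At least 2-fold, 1648 genes were higher (12.1%) and 402 were lower (2.95%), 15.1% together. At 4-fold or more, 609 were higher and 45 lower. The median log2 fold change over all genes was 0.00. With library totals and no scaling factors the split of called genes moved from 52.4% higher to 79.7% higher, over 2654 calls. Both libraries of a group lay outside the range of the other group for 82.5% of genes, so a lack of overlap is common here.

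**Figure D1:**
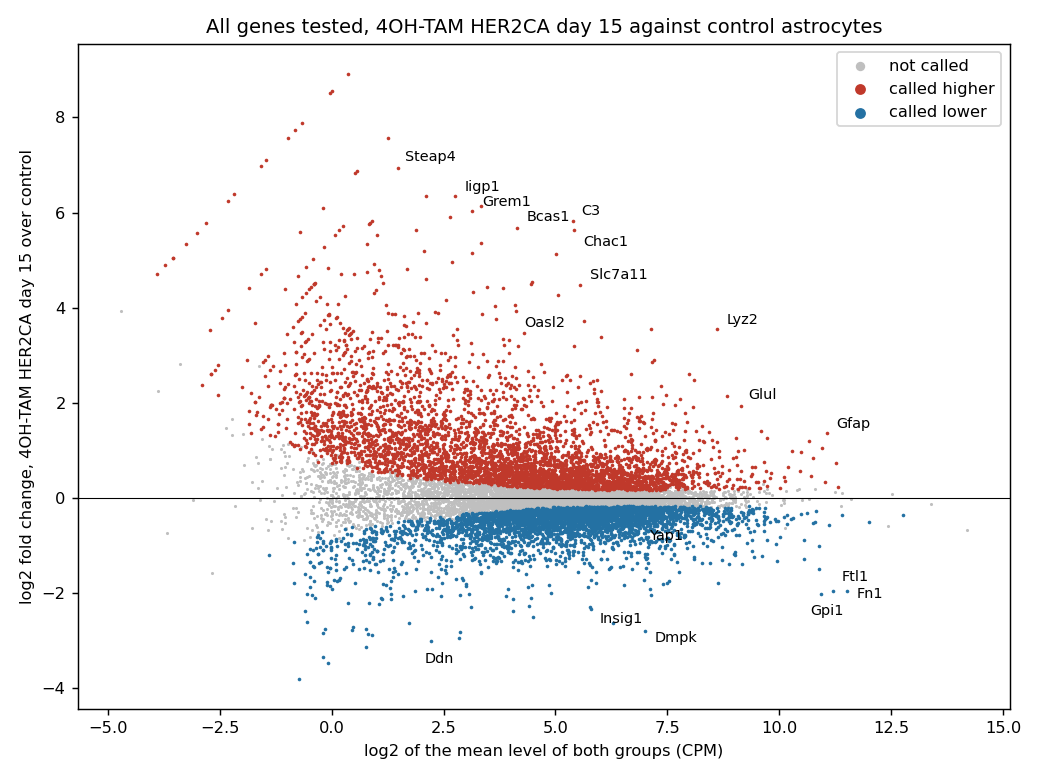
Each point is a gene, with the log2 of its mean level over both groups (CPM) on the x axis and its log2 fold change of 4OH-TAM HER2CA day 15 over control on the y axis; red and blue points are called higher and lower, grey points are not called. Large changes extend further upward than downward, with 609 genes higher and 45 lower by 4-fold or more.

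The 12 largest increases among genes at 5 CPM or more were in genes of varied function. Steap4, a metalloreductase gene of the reactive astrocyte response, had 0 and 2 counts in control and 131 and 157 counts in 4OH-TAM, a ratio of 139 (95% interval 38.0 to 1151 from counting error only). Gbp4 and Iigp1, which encode interferon-induced GTPases, stood at 0.0824 to 0.165 CPM in control and at 7.84 to 13.4 CPM in 4OH-TAM, and both had log2 fold changes of 6.35. Gbp4 overlaps Gbp8 and Gbp9 on the same strand, so its count is uncertain. C3, the central complement component, stood at 1.42 and 1.44 CPM in control and at 62.1 and 102 CPM in 4OH-TAM (log2 fold change 5.83, SE 0.24). The 2 replicates of C3 differed more than those of most genes named here, yet both lay far above control, which this ranking required. Grem1, a secreted BMP antagonist, rose from 0.346 and 0.165 CPM to 17.3 and 17.1 CPM (log2 fold change 6.03). Moxd1, a monooxygenase gene, rose by 6.15 and Nefl, the neurofilament light chain, by 5.91 on the log2 scale, and Nefl overlaps Nefm on the opposite strand. The other genes of this rank were Bcas1 (5.67), an oligodendrocyte gene, Scn7a (5.64), a sodium channel gene, Chac1 (5.64), a glutathione-degrading enzyme gene, Slco1a4 (5.36), an organic anion transporter gene, and Plscr2 (5.18), a phospholipid scramblase gene, all as log2 fold changes.

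The largest decreases were smaller and fell on genes of varied function. Dmpk, the myotonic dystrophy protein kinase gene, stood at 233 and 216 CPM in control and at 33.5 and 30.9 CPM in 4OH-TAM, a log2 fold change of -2.80 (SE 0.079). Ddn, which encodes the cytoskeletal protein dendrin, had the lowest log2 fold change of the set at -3.01, from 8.95 and 7.74 CPM to 1.23 and 0.842 CPM. Plin4, a lipid droplet protein gene, went from 136 and 131 CPM to 24.8 and 18.3 CPM (-2.63), and Mef2c, a transcription factor gene, from 94.8 and 89.1 CPM to 19.5 and 16.9 CPM (-2.34). Only called genes whose 2 groups did not overlap were ranked, so the separation of these genes was required by the choice. Hspb1, a small heat shock protein gene, fell by 2.496 and Insig1, a sterol-regulated membrane protein gene, by 2.29 on the log2 scale. The others were Mreg (-2.93), Rtn4r (-2.82), the Nogo receptor gene, Piwil2 (-2.63), Shisa8 (-2.38), Ip6k3 (-2.29) and Efna3 (-2.26), an ephrin gene, as log2 fold changes.

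Among the genes with the most counts and at least a 2-fold change, 4 of the 10 increases were astrocyte markers (Gfap, Aqp4, Slc1a2 and Glul), and the decreases included matrix, iron storage, cytoskeletal and glycolytic genes. Fn1, the matrix glycoprotein fibronectin, stood at 4690 and 4589 CPM in control and at 1272 and 1132 CPM in 4OH-TAM (log2 fold change -1.95, SE 0.096). Ftl1, the ferritin light chain, went from 3559 and 3860 CPM to 973 and 930 CPM (-1.96), and Cd109, a membrane protein that restrains TGF-beta signalling, from 2861 and 2747 CPM to 1040 and 958 CPM (-1.49). This ranking too took only genes whose groups did not overlap, so their separation is not a result. Ptprz1, a receptor phosphatase of glial progenitors, rose from 980 and 972 CPM to 2114 and 2354 CPM (1.19), and Tnc, the matrix protein tenascin C, from 425 and 417 CPM to 1078 and 1166 CPM (1.42). Lyz2, a myeloid lysozyme gene, rose from 55.7 and 67.2 CPM to 729 and 713 CPM (log2 fold change 3.55, SE 0.092). The Lyz2 increase was 11.7-fold. Dhrs1, a dehydrogenase gene, rose from 278 and 342 CPM to 738 and 743 CPM (1.26). Bsg, the surface protein basigin, fell from 963 and 970 CPM to 432 and 383 CPM (-1.25). The counting of reads shared with near-identical copies is not stated, which bears on Ftl1, Gapdh, Actg1, Tpi1 and Lyz2.

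The YAP/TAZ target list moved in both directions. Of its 31 genes 29 were measured (Ankrd1 and Foxf2 were not analysed here), and 17 were higher, 8 lower and 4 not called, with a median log2 fold change of 0.32 beside 0.00 for all genes. Of all genes 31.0% were higher and 28.2% lower, so the share of targets that fell was close to that of all genes. Cyr61, a matricellular gene that is a standard readout of YAP and TAZ, stood at 284 and 260 CPM in control and at 118 and 105 CPM in 4OH-TAM (log2 fold change -1.29, SE 0.14). Gadd45b, a stress-induced gene, went from 24.96 and 23.3 CPM to 9.57 and 8.19 CPM (-1.44), and Ajuba, a scaffold that binds LATS kinases, from 55.6 and 51.5 CPM to 23.9 and 24.4 CPM (-1.15). These 3 were the members that fell by at least 2-fold. Ctgf, the other standard readout, went the opposite way, from 17.2 and 14.1 CPM to 26.7 and 25.2 CPM (0.73, SE 0.12). Igfbp3, an IGF-binding protein gene, was the only member at least 2-fold higher, at 173 and 162 CPM in control and 685 and 801 CPM in 4OH-TAM (2.15, SE 0.091). Rbms3, an RNA-binding protein gene, rose by 0.99 and Amotl1, an angiomotin that binds YAP, by 0.41, while Amotl2 fell by 0.52 on the log2 scale. Tgfb2 fell by 0.47 on the same scale. Nuak2, Arhgef17, Myof and Nt5e were not called. Without scaling factors 4 members were called higher and 3 lower, and in a test against a 1.5-fold change 3 and 3.

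The promoters of Cyr61 and Ajuba are shown because these members had the lowest log2 fold changes among those with a TEAD motif in the window searched. The sequences are from RefSeq, GRCm38.p6, run from 250 bases before the transcript start to 50 after it, and have the motif CATTCC (or its reverse complement GGAATG) in capitals.
Cyr61, chr3:145649936-145650235, minus strand: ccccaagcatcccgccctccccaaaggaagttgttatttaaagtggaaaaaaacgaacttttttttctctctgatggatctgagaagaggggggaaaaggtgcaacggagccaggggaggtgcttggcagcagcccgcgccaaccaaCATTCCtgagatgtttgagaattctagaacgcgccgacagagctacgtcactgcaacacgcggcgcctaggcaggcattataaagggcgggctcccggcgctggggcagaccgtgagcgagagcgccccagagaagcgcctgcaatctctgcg
Ajuba, chr14:54577612-54577911, minus strand: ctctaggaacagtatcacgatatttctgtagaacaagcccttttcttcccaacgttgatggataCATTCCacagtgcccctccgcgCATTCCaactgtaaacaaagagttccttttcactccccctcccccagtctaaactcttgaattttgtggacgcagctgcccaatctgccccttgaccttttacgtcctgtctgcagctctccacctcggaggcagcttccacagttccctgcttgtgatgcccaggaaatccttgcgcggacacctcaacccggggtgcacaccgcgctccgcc
In Cyr61 the match began 103 bases before the transcript start, and in Ajuba the matches began 186 and 164 bases before it. The motif occurred in 9 of the 22 measured members that have such a window, beside 14.4% of the tested genes with a window and 14.7% of all windows. A match is a run of letters and not a measured site.

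**Figure D2:**
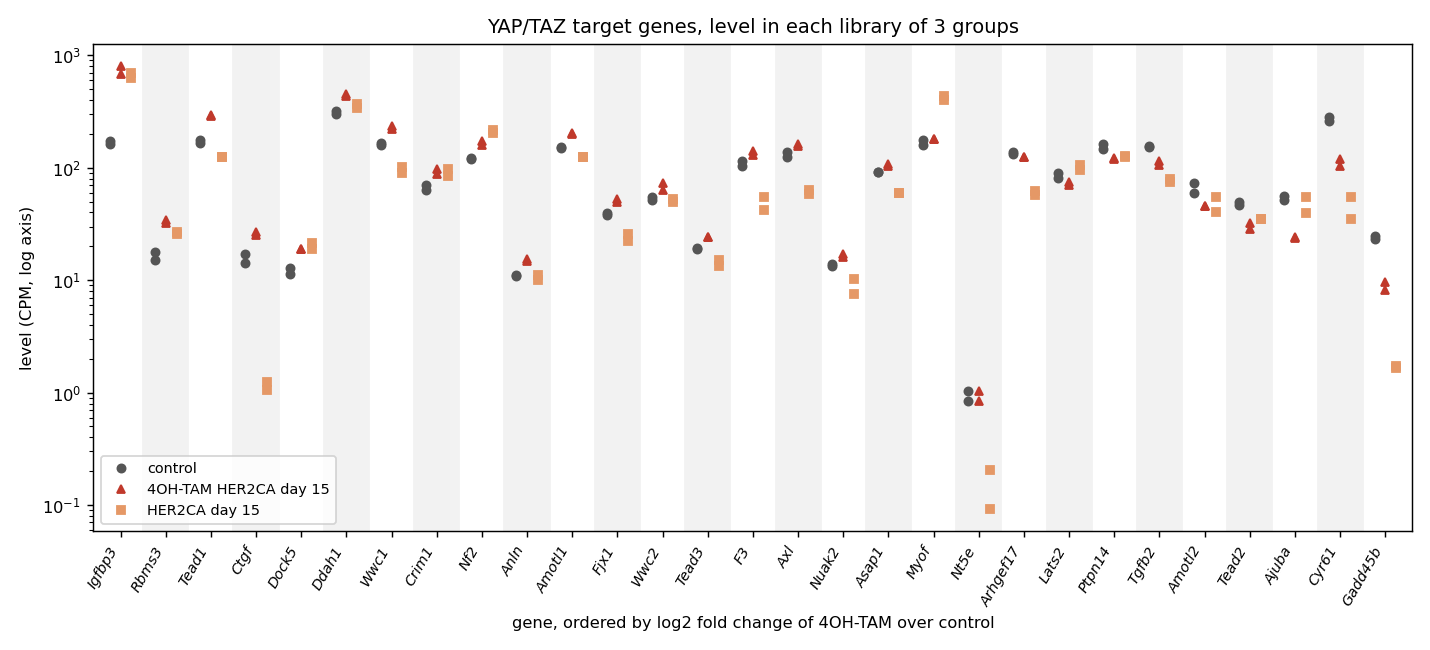
The level of each of the 29 measured YAP/TAZ targets in CPM (log axis) is shown for every library of the control, 4OH-TAM and HER2CA day 15 groups, with genes ordered by the log2 fold change of 4OH-TAM over control. Igfbp3 lies at the high end and Ajuba, Cyr61 and Gadd45b at the low end, and most members lie between with small differences.

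In the Hippo pathway core, TEAD genes moved apart from each other. Of 29 measured members, 13 were higher, 8 lower and 8 not called, with a median log2 fold change of 0.15, beside 31.0% higher and 28.2% lower of all genes. No scaling factors left 5 higher and 2 lower, and the 1.5-fold test 3 and 2. Tead1 stood at 178 and 165 CPM in control and at 290 and 296 CPM in 4OH-TAM (log2 fold change 0.77, SE 0.087). Tead4 went from 8.79 and 9.27 CPM to 3.91 and 3.25 CPM (-1.33, SE 0.17), and Tead2 from 46.5 and 49.8 CPM to 32.6 and 28.5 CPM (-0.66). Tead3 rose by 0.34 on the log2 scale, so 2 TEAD genes rose and 2 fell. Vgll4, a co-repressor that competes with YAP for TEAD, fell from 49.4 and 49.8 CPM to 26.7 and 26.4 CPM (-0.90). Of the upstream members, the kinase gene Taok2 rose by 0.83 and the protocadherin genes Fat4 and Dchs1 by 1.00 and 0.76, whereas the MST kinase genes Stk3 (-0.05) and Stk4 (0.14) were not called.

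ERK pathway outputs were more often higher than lower in 4OH-TAM, while Erbb2 itself was not called. In HER2CA day 15 without 4OH-TAM, 5 of the 24 members were higher than control and 16 lower, with a median log2 fold change of -0.94. In 4OH-TAM, 14 of the 24 were higher, 5 lower and 5 not called, with a median log2 fold change of 0.38, and 6 were at least 2-fold higher. With no scaling factors, and also in the 1.5-fold test, 9 were higher and 1 lower, and 3 were lower without 4OH-TAM replicate B or without control replicate B. Dusp6, a phosphatase that removes phosphate from ERK and is a standard readout of its activity, stood at 29.0 and 27.5 CPM in control and at 92.6 and 105 CPM in 4OH-TAM (log2 fold change 1.81, SE 0.093). Hmga2, a chromatin protein gene of fetal and tumour cells, rose from 11.5 and 10.3 CPM to 65.9 and 64.5 CPM (2.58). Ccnd1, the cyclin that drives entry into the cell cycle, rose from 498 and 487 CPM to 1190 and 1188 CPM (1.27, SE 0.074). All 3 genes kept the groups apart, which the ranking by level required of Ccnd1. The ERK inhibitor Spry1 rose by 1.78 and Myc by 1.64 on the log2 scale. Immediate-early genes went the other way, Fos from 161 and 198 CPM to 98.4 and 93.3 CPM (-0.91) and Junb by -0.37, and Dusp5 changed by -0.73, whereas Egr1 rose by 0.47. Among 18 measured ErbB receptors, ligands and inhibitors, 9 were higher, 2 lower and 7 not called, beside 31.0% higher and 28.2% lower of all genes. The ErbB counts became 4 higher and 1 lower with no scaling factors and 3 and 1 in the 1.5-fold test. Erbb3 fell from 5.84 and 5.11 CPM to 2.30 and 2.10 CPM (-1.31) and Erbb4 rose from 2.30 and 1.77 CPM to 5.55 and 8.30 CPM (1.76). The ligand gene Hbegf rose by 0.74, Btc by 1.34 and Ereg by 1.90 on the log2 scale, and the ubiquitin ligase gene Cblb fell by 0.48. Egfr (0.20) was called with all libraries but not without 4OH-TAM replicate A (0.22), 4OH-TAM replicate B (0.18) or control replicate A (0.14).

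Interferon-response genes rose together. Of 38 listed genes 36 were measured, 35 were higher, 0 lower and 1 not called, and 29 were at least 2-fold higher, with a median log2 fold change of 1.75 beside 0.00 for all genes. Of these members 5 (Isg15, Zbp1, Oas1a, Oas2 and Mx1) reached 1 CPM only in the 4OH-TAM libraries. Ifit1, which binds viral RNA, stood at 1.997 and 1.81 CPM in control and at 31.7 and 32.4 CPM in 4OH-TAM (log2 fold change 4.07, SE 0.17). Oasl2, an oligoadenylate synthetase-like gene, rose from 1.88 and 2.35 CPM to 31.7 and 33.2 CPM (3.94), and Isg15, a ubiquitin-like modifier, from 0.346 and 0.659 CPM to 6.43 and 6.66 CPM (3.70). In Ifit1 and Oasl2 both 4OH-TAM libraries lay far above both control libraries. Isg15 entered the count table only through the 4OH-TAM libraries, so it had to be higher there. The transcription factor genes of the pathway rose less. Stat2 went from 17.7 and 18.5 CPM to 36.6 and 36.6 CPM (1.02), and Irf9 rose by 1.21 on the log2 scale. Ifit2 was the exception, at 74.8 and 65.4 CPM in control and 62.5 and 59.1 CPM in 4OH-TAM, not called (-0.21, SE 0.088). Without control replicate B, without the second gliomasphere library, or with only the 2 groups fitted, 1 member was called lower. No scaling factors left 32 members called higher.

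The promoters of Ifit1 and Isg15 are shown because both are usual readouts of interferon signalling and hold the interferon-stimulated response element. The windows are from RefSeq, GRCm38.p6, run from 250 bases before to 50 after the transcript start, and have the motif (GAAA, 2 bases of any kind and GAAA again, or the reverse complement with TTTC) in capitals.
Ifit1, chr19:34640639-34640938, plus strand: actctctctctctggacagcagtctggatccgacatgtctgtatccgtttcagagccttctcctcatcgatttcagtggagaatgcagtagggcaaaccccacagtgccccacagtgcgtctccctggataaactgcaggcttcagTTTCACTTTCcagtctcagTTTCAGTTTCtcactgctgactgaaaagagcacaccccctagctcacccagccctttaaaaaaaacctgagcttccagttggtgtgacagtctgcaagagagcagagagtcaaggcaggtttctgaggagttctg
Isg15, chr4:156200769-156201068, minus strand: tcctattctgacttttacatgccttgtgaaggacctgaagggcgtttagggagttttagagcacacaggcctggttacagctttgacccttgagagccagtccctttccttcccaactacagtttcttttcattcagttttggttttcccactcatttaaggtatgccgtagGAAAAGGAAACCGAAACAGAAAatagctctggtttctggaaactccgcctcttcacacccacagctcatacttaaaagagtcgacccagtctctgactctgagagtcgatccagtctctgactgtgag
Ifit1 has matches that begin 104 and 85 bases before the start, and Isg15 has 3 overlapping matches, of which the farthest begins 78 bases before it. The motif was in the window of 17 of the 24 measured members that have a window, beside 3.62% of tested genes with a window and 3.44% of all windows. Binding was not measured.

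Complement, inflammatory and reactive astrocyte genes were also mostly higher. Of 19 measured complement genes, 17 were higher, 0 lower and 2 not called, with a median log2 fold change of 1.98, and 15 were at least 2-fold higher. Of the measured complement genes 2 reached 1 CPM only in 4OH-TAM. C4b, of the classical pathway, stood at 59.7 and 76.9 CPM in control and at 269 and 272 CPM in 4OH-TAM (log2 fold change 1.98, SE 0.095). The initiating proteases C1ra and C1s1 rose by 2.97 and 2.59 and their inhibitor Serping1 by 2.37 on the log2 scale. C1qb, a subunit of the recognition complex, rose from 10.1 and 11.8 CPM to 66.8 and 62.1 CPM (2.56), and C1qa and C1qc by 2.34 and 2.48. Of 21 measured inflammatory cytokine and NF-kB genes, 17 were higher, 1 lower and 3 not called, with a median of 0.99, and 6 (Cxcl1, Cxcl5, Ccl7, Il1a, Ccl3 and Tnf) reached 1 CPM only in 4OH-TAM. The chemokine gene Cxcl1 rose from 0.346 and 0.288 CPM to 4.75 and 4.74 CPM (3.88), and Tnfaip2 from 3.46 and 3.95 CPM to 22.8 and 22.8 CPM (2.62). Cxcl5 had 1 and 0 counts in control and 128 and 123 counts in 4OH-TAM. Tnfaip3, an inhibitor of NF-kB, fell by 0.55 on the log2 scale, a call lost with no scaling factors and in the 1.5-fold test. With genes under 5 CPM in 2 libraries removed, 11 inflammatory members were called higher, because fewer were tested.

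Among 37 measured reactive astrocyte genes, 27 were higher, 5 lower and 5 not called, with a median log2 fold change of 0.68, and 2 reached 1 CPM only in 4OH-TAM. No scaling factors left 17 higher and 3 lower, and the 1.5-fold test 17 and 4. Osmr, the oncostatin M receptor, rose from 67.8 and 68.7 CPM to 212 and 219 CPM (1.66, SE 0.070), and Stat3 by 0.61. H2-D1 and H2-T23, class I histocompatibility genes, rose by 1.34 and 2.27 on the log2 scale. Cd109, described above, Emp1 (-0.78) and Hspb1 (-2.496) fell, and Vim, the intermediate filament vimentin, was not called (0.09). Of 22 measured antigen presentation genes, 9 were higher, 5 lower and 8 not called, beside 31.0% higher and 28.2% lower of all genes. Of these 22 genes, 1 reached 1 CPM only in 4OH-TAM. The lower calls were 2 without 4OH-TAM replicate B, 3 without control replicate B, and 1 with no scaling factors or in the 1.5-fold test, the last 2 settings leaving 5 higher. H2-Q4 rose by 1.13 and B2m, the class I light chain, from 215 and 223 CPM to 319 and 289 CPM (0.47). The chaperone gene Pdia3 fell by 0.42. The peptide transporter Tap1 (-0.37) and its partner Tapbp (-0.25) lost their calls without either 4OH-TAM replicate B or control replicate B, and the chaperone gene Calr (-0.34) without 4OH-TAM replicate B. H2-Ab1, a class II gene, changed by -1.14 on the log2 scale. Near-identical H2 genes can share reads, so single values of this family are uncertain.

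Microglia and macrophage markers moved with the interferon and complement genes. Of 23 measured markers, 19 were higher, 0 lower and 4 not called, and 2 reached 1 CPM only in 4OH-TAM. Their summed level was 315 and 346 CPM in control, 1428 and 1368 CPM in 4OH-TAM and 290 and 303 CPM in HER2CA day 15. Most of the 4OH-TAM sum was Lyz2, at 729 and 713 CPM. Mpeg1, a pore-forming protein gene of macrophages, rose from 23.1 and 23.6 CPM to 101 and 97.3 CPM (log2 fold change 2.08), and Csf1r, the receptor these cells need to survive, from 7.95 and 9.47 CPM to 20.6 and 21.7 CPM (1.28). The microglial receptor gene Cx3cr1 (5.94 CPM in control, 5.66 CPM in 4OH-TAM) and Cd68 (88.5 and 88.8 CPM) were not called, nor were Cd14 and Ly86. Aif1 was not analysed here, and P2ry12 and Tmem119 stood at 1.86 and 1.17 CPM in 4OH-TAM. The part that these cells may have in the interferon, complement and inflammatory values was not tested. In bulk samples, fewer cells of a type and less RNA per cell cannot be told apart.

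**Figure D3:**
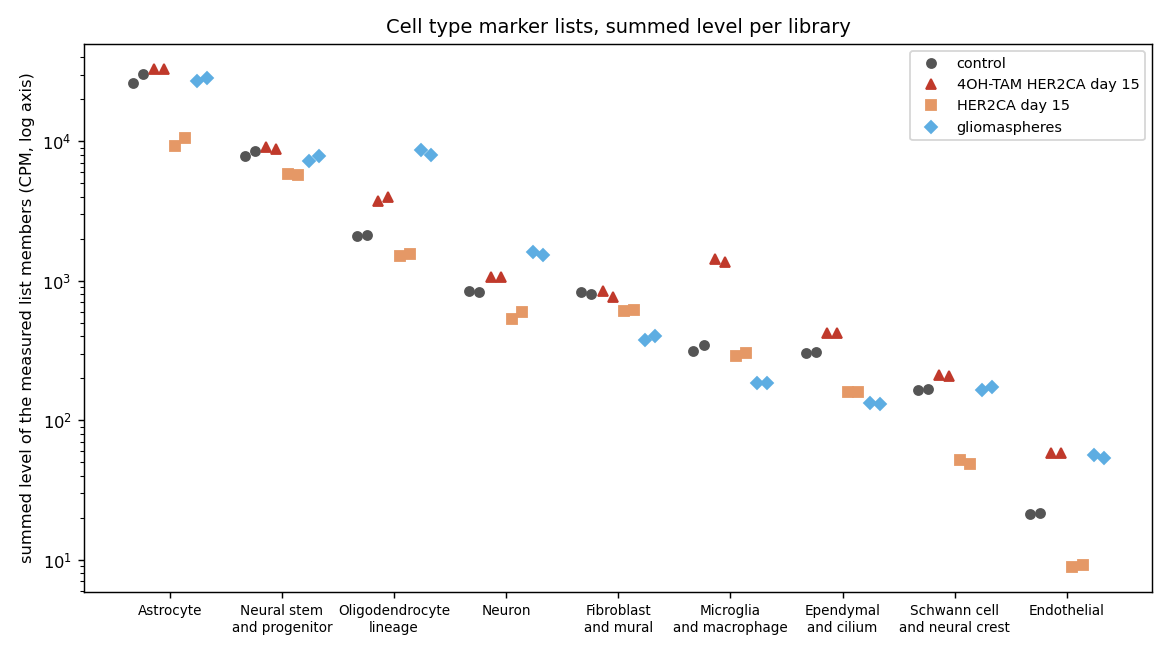
The summed level of the measured members of each cell type marker list is shown in CPM (log axis) for each of the 8 libraries, with symbols for the group. The microglia and macrophage sum was 1428 and 1368 CPM in the 4OH-TAM libraries against 315 and 346 CPM in control, and the astrocyte sum was the highest of the lists in all libraries.

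Astrocyte genes were more often higher than lower. Of 31 measured markers, 16 were higher, 7 lower and 8 not called, with a median log2 fold change of 0.25. Of all genes 31.0% were higher and 28.2% lower. At least 2-fold, 9 were higher and 1 was lower. No scaling factors left 11 higher and 1 lower, and the 1.5-fold test 10 and 1. Glul, glutamine synthetase, rose from 219 and 250 CPM to 867 and 929 CPM (log2 fold change 1.94, SE 0.086). Aldoc, the astrocytic aldolase, rose from 97.4 and 130 CPM to 406 and 445 CPM (1.90), and Slc4a4, a bicarbonate transporter, from 179 and 198 CPM to 475 and 516 CPM (1.39). The glutamate transporter gene Slc1a2 rose by 1.02 and the water channel gene Aqp4 by 1.04 on the log2 scale. Each of these kept the groups apart, as did 82.5% of all genes. The ranking by level required this of Glul, Slc1a2 and Aqp4. Other members went the other way, and the lowest log2 fold change of the list was -1.24. Mt1, a metallothionein, fell by 0.68, Fgfr3 by 0.52 and S100b by 0.66 on the log2 scale, and Apoe (-0.13) was not called.

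Most measured oligodendrocyte-lineage genes rose. Of 30 listed genes 24 were measured, and 20 were higher, 3 lower and 1 not called, with a median log2 fold change of 1.96. Of the measured genes 2 reached 1 CPM only in 4OH-TAM. Pdgfra, the receptor of oligodendrocyte progenitors, stood at 1.84 and 1.89 CPM in control and at 31.4 and 53.2 CPM in 4OH-TAM (log2 fold change 4.496, SE 0.24). Gpr17, a marker of committed precursors, rose from 1.46 and 2.22 CPM to 39.6 and 45.3 CPM (4.53), and Bcas1, of early myelinating cells, from 0.538 and 0.824 CPM to 34.8 and 34.6 CPM (5.67). The lineage transcription factor Sox10 rose from 3.80 and 5.77 CPM to 21.98 and 27.6 CPM (2.38), and Olig1 and Olig2 by 1.51 and 0.87. Cspg4, the NG2 proteoglycan of progenitors, fell from 137 and 148 CPM to 63.1 and 65.1 CPM (-1.15), Mbp, myelin basic protein, from 45.2 and 42.3 CPM to 23.7 and 15.6 CPM (-1.15), and Vcan by 0.56. Of myelin genes, Mag had 30 and 30 counts against 2 and 0 in control, and Mog, Mobp and Opalin were not analysed here. Markers of progenitors, precursors and myelin thus did not all move the same way.

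Other lineages gave smaller or mixed values, set here beside 31.0% higher and 28.2% lower of all genes. Of 27 neural stem and progenitor genes, 12 were higher, 9 lower and 6 not called, with a median of 0.13, against 5 and 1 called with no scaling factors and 4 and 0 in the 1.5-fold test. Fabp7, the radial glia fatty acid binding protein, rose from 51.5 and 54.0 CPM to 221 and 239 CPM (2.13) and Nes, nestin, by 0.66, while Sox2 fell by 0.47. Emx2 rose by 0.80. Of 18 measured neuron genes, 10 were higher, 4 lower (2 with genes under 5 CPM removed) and 4 not called, Nefm rising by 3.25 and Tubb3 by 3.09 while Eno2, Gad1 and Slc17a7 changed by -1.20, -1.33 and -1.49. Rbfox3, Snap25 and Syt1, which define mature neurons, were not analysed here. Among 17 fibroblast and mural genes, 13 were higher, 3 lower and 1 not called. Fmod, a collagen-binding proteoglycan, rose from 9.52 and 13.1 CPM to 126 and 110.4 CPM (3.38), Anpep by 3.46 and Pdgfrb by 2.32, whereas Acta2, smooth muscle actin, fell from 209.7 and 177 CPM to 64.8 and 52.3 CPM (-1.72) and Tagln by 1.44. Ependymal and cilium genes were 17 higher, 0 lower and 2 not called of 19, with a median of 1.01. In this list and in the fibroblast and mural list, 1 member each reached 1 CPM only in 4OH-TAM. Spef2 rose by 2.06, Spag6 by 2.68 and Tekt1 by 1.501, and Foxj1, the ciliogenesis factor, was not called (0.12). Of 18 listed endothelial genes 7 were measured and 4 were higher, but Slco1a4 (5.36) and Kdr (2.91) reached 1 CPM only in 4OH-TAM. Flt1 rose by 1.05, 1 endothelial member was called lower without 4OH-TAM replicate B, and Pecam1, Cdh5 and Cldn5 were not analysed here. Of 12 Schwann cell and neural crest genes, 5 were higher and 3 lower (1 lower without 4OH-TAM replicate A, with no scaling factors or in the 1.5-fold test), and Sox10 and Erbb3 belong to this list as well as to those above. All single values in these sentences are log2 fold changes unless CPM is named.

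**Figure D4:**
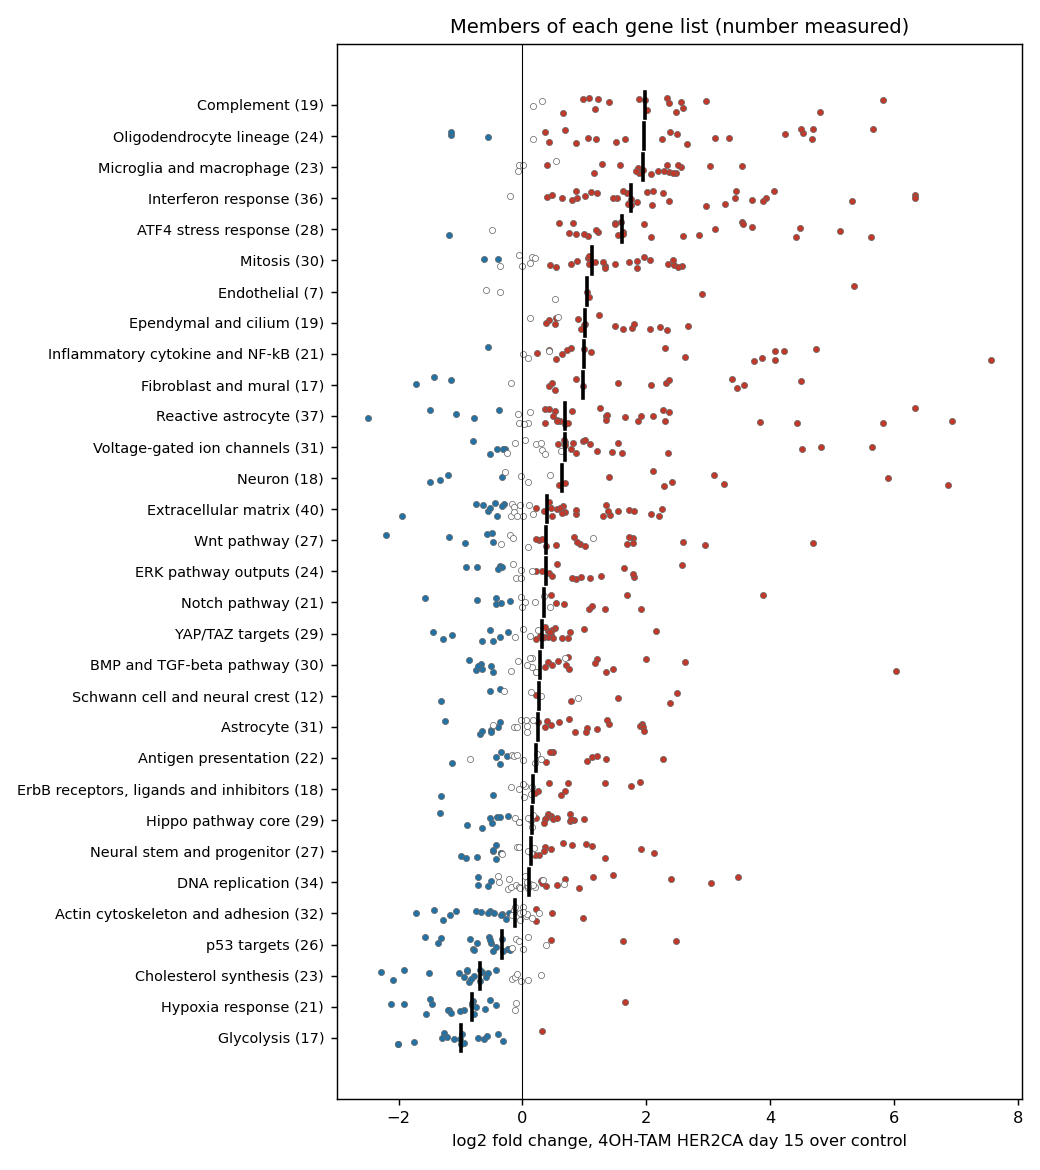
Each point is a measured member of a gene list, placed by its log2 fold change of 4OH-TAM HER2CA day 15 over control; red and blue are called higher and lower, white are not called, and black bars are list medians. Medians run from 1.98 for complement to -0.99 for glycolysis.

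ATF4 target genes formed the other large group of increases. ATF4 is the transcription factor that the integrated stress response induces when amino acids run short or proteins misfold, and it drives amino acid synthesis, import and tRNA charging. Of 28 members, 26 were higher, 1 lower and 1 not called, with a median log2 fold change of 1.61, and 21 were at least 2-fold higher. Atf4 itself stood at 88.0 and 79.5 CPM in control and at 345 and 361 CPM in 4OH-TAM (log2 fold change 2.07, SE 0.088). Chac1 rose from 1.88 and 1.44 CPM to 79.1 and 87.7 CPM (5.64, SE 0.13), and Trib3, a pseudokinase that feeds back on ATF4, from 2.04 and 1.52 CPM to 57.0 and 68.4 CPM (5.13). In both genes the 2 groups were far apart, which the ranking by size required of Chac1, and the replicates were close. Asns, asparagine synthetase, rose from 22.3 and 24.4 CPM to 179 and 223 CPM (3.10), Mthfd2, of mitochondrial folate metabolism, from 7.56 and 6.38 CPM to 84.6 and 99.0 CPM (3.71), and the cystine transporter Slc7a11 from 3.99 and 4.08 CPM to 74.0 and 106 CPM (4.48). The serine synthesis genes Psat1 and Phgdh rose by 1.96 and 1.49, on the log2 scale, and Ddit3, the stress factor CHOP, from a mean of 36.7 to 104 CPM. Ddit4, an inhibitor of mTORC1, went the other way, from 185 and 179 CPM to 85.3 and 75.1 CPM (-1.18), and it is also a hypoxia-induced gene. Cebpb was not called (-0.49). Without 4OH-TAM replicate B, control replicate B or the second gliomasphere library, or with only the 2 groups fitted, 2 members were called lower.

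The promoters of Chac1 and Slc7a11 are shown because both are in the 4 highest of this list by log2 fold change and hold the CARE motif, the composite element that ATF4 binds with C/EBP partners. The windows are from RefSeq, GRCm38.p6, and have TGATGNAA or its reverse complement TTNCATCA in capitals.
Chac1, chr2:119350992-119351291, plus strand: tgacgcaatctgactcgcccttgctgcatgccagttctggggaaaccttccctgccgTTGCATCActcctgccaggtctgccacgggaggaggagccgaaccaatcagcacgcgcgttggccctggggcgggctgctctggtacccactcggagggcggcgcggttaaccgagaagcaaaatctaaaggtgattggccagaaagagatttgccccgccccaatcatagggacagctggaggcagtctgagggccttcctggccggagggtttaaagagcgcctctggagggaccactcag
Slc7a11, chr3:50443564-50443863, minus strand: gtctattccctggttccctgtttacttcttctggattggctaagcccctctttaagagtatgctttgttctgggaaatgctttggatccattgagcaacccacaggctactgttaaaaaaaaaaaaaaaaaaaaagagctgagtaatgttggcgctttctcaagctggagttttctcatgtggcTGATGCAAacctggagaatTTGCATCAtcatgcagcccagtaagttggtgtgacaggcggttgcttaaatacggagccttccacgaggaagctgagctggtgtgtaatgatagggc
The match in Chac1 begins 193 bases before the transcript start, and those in Slc7a11 begin 66 and 47 bases before it. The motif was in 9 of the 26 members with a window, beside 2.72% of tested genes with a window and 3.97% of all windows.

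Glycolytic, hypoxia and sterol genes fell. Of 17 measured glycolysis genes, 16 were lower and 1 higher, with a median log2 fold change of -0.99. Gpi1, glucose-6-phosphate isomerase, stood at 2886 and 3319 CPM in control and at 823 and 717 CPM in 4OH-TAM (log2 fold change -2.01, SE 0.10). The glucose transporter Slc2a1 fell from 281 and 289 CPM to 93.5 and 76.6 CPM (-1.75), and Pfkfb3, which makes an activator of phosphofructokinase, from 394 and 379 CPM to 162 and 157 CPM (-1.28). The lactate steps fell as well, Ldha from 865 and 968 CPM to 451 and 398 CPM (-1.11) and the lactate exporter Slc16a3 by 2.003 on the log2 scale. Gapdh, often used as a reference gene, fell from 2294 and 2738 CPM to 1301 and 1207 CPM (-1.005), and Tpi1 by 1.22. The muscle-type phosphofructokinase gene Pfkm was the member that rose, from 219 and 253 CPM to 294 and 296 CPM (0.32), and its call was lost without control replicate A (log2 fold change 0.21, adjusted p = 0.0617 in edgeR's quasi-likelihood test), with no scaling factors and in the 1.5-fold test. Both of the last settings called 11 members lower.

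Hypoxia-response genes, many of them targets of HIF factors, were 18 lower, 1 higher and 2 not called of 21, with a median log2 fold change of -0.82. Vegfa, the angiogenic growth factor, stood at 726 and 694 CPM in control and at 321 and 301 CPM in 4OH-TAM (-1.19, SE 0.077). Car9, a carbonic anhydrase, went from 99.0 and 118 CPM to 43.6 and 33.4 CPM (-1.49), Bnip3, a mitophagy receptor, from 191 and 189 CPM to 74.8 and 62.8 CPM (-1.46), and Fam162a by -1.92. Angptl4, a lipase inhibitor that PPAR factors also induce, rose from 2.30 and 3.38 CPM to 8.92 and 8.84 CPM (1.65). No scaling factors left 11 of these members called lower. The oxygen level of the cultures is not stated.

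Cholesterol synthesis and uptake genes were 17 lower, 0 higher and 6 not called of 23 measured, with a median of -0.69. SREBP2, encoded by Srebf2, drives these genes when membrane sterol is low. Insig1, which holds SREBP2 in the endoplasmic reticulum, stood at 96.8 and 85.1 CPM in control and at 18.7 and 18.5 CPM in 4OH-TAM (log2 fold change -2.29, SE 0.099). Stard4, a sterol carrier, went from 26.1 and 22.4 CPM to 6.59 and 6.20 CPM (-1.92). The synthase gene Hmgcs1 fell by 1.03 and Srebf2 by 0.69 on the log2 scale. With no scaling factors 9 members were called lower, and in the 1.5-fold test 10. With no scaling factors and no second gliomasphere library, or with only the 2 groups fitted, 1 was called higher.

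**Figure D5:**
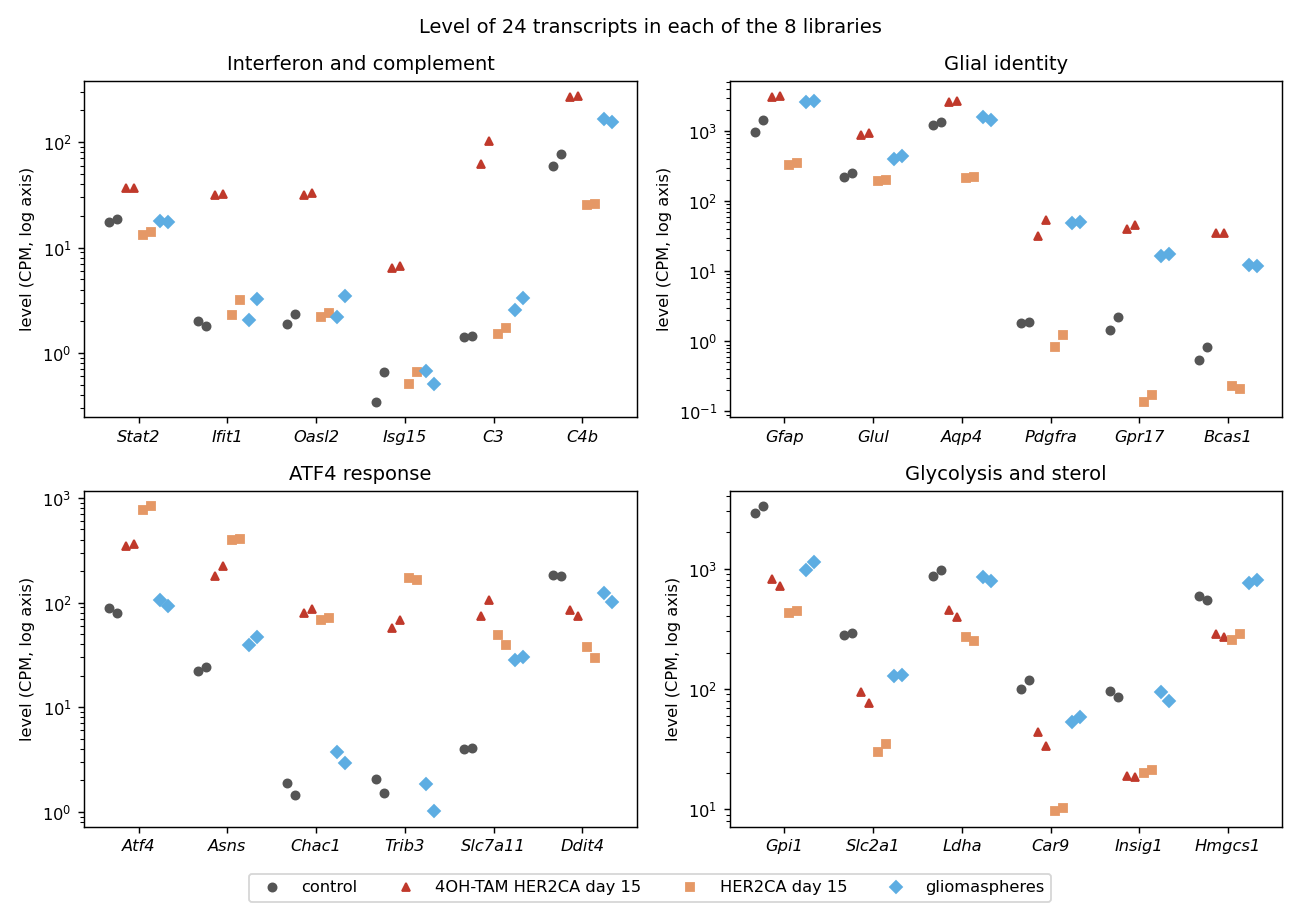
Levels of 24 transcripts in CPM (log axes) are shown for every library of the 4 groups. Interferon, complement and glial genes were highest in 4OH-TAM or in gliomaspheres, ATF4-response genes other than Ddit4 were higher than control in both day 15 groups, and the glycolytic and sterol genes and Car9 were lower than control in both.

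Mitotic genes rose from a low base, while the p53 target list fell. Of 30 mitosis genes, 22 were higher, 2 lower and 6 not called, with a median log2 fold change of 1.13. Mki67, the proliferation marker Ki-67, stood at 2.88 and 2.64 CPM in control and at 13.5 and 16.9 CPM in 4OH-TAM (2.46, SE 0.20), and Ccna2, cyclin A2, at 1.31 and 0.906 CPM and then 6.43 and 6.85 CPM (2.57). In the gliomaspheres Mki67 stood at 245 and 263 CPM. The mitotic motor gene Kif11 rose by 1.86, while Cdk1 was not called (-0.06) and Birc5 fell by 0.62. Nusap1 (-0.39) lost its call without 4OH-TAM replicate A, 4OH-TAM replicate B or control replicate A, and no mitosis gene was called lower with no scaling factors (18 higher) or in the 1.5-fold test (17 higher). DNA replication genes were 12 higher, 4 lower and 18 not called of 34, with a median of 0.10, beside 31.0% higher and 28.2% lower of all genes, and 5 higher and 0 lower with no scaling factors and in the 1.5-fold test. Mcm5, of the replicative helicase, rose from 1.34 and 1.69 CPM to 7.20 and 8.84 CPM (2.40) and Pole by 1.47, while Rpa2, Lig1 and Cdt1 fell by 0.72, 0.56 and 0.50. Of 26 p53 targets, 17 were lower, 3 higher and 6 not called, with a median of -0.32. Cdkn1a, the cell cycle inhibitor p21, fell from 1434 and 1374 CPM to 599.6 and 522 CPM (-1.32, SE 0.084), Btg2 from 168 and 156 CPM to 65.2 and 60.9 CPM (-1.36), and Phlda3 by 0.80. The 3 that rose were Gadd45a (2.48), Sesn2 (1.62) and Pltp (0.46), of which Sesn2 is also in the ATF4 list. The p53 targets called lower were 4 with no scaling factors and 6 in the 1.5-fold test.

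Actin and adhesion genes fell more often than they rose, and more matrix genes were higher than lower. Both lists are set beside 31.0% higher and 28.2% lower of all genes. Of 32 measured actin cytoskeleton and adhesion genes, 14 were lower, 4 higher and 14 not called, with a median of -0.13. With no scaling factors, and also in the 1.5-fold test, 5 were lower and 1 higher, and 2 were higher without 4OH-TAM replicate A or control replicate A. Actg1, cytoplasmic gamma actin, went from 2042 and 2224 CPM to 922 and 832 CPM (log2 fold change -1.28), and the cross-linker Flnc and the fibronectin receptor subunit Itga5 by -1.17 and -1.07. Lmod1 rose by 0.98. Of 40 extracellular matrix genes, 22 were higher, 9 lower and 9 not called, with a median of 0.39, against 12 and 1 with no scaling factors and 12 and 2 in the 1.5-fold test. Thbs1, thrombospondin 1, rose from 22.1 and 18.9 CPM to 87.2 and 102 CPM (2.21), and Nid1, of basement membranes, from 39.6 and 41.3 CPM to 101 and 105 CPM (1.35). Besides Fn1, Hspg2, the proteoglycan perlecan, fell by 0.75 and Col5a2 by 0.64, while Col1a1 rose by 0.87 on the log2 scale.

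Developmental signalling lists were mixed, beside 31.0% higher and 28.2% lower of all genes. In the Notch, BMP and TGF-beta, and Wnt lists, 1 member each reached 1 CPM only in 4OH-TAM. In the Notch list 9 of 21 measured genes were higher, 6 lower and 6 not called, with a median of 0.34, and 5 were higher and 1 lower with no scaling factors and in the 1.5-fold test. The effector Hes1 rose from 4.22 and 5.11 CPM to 16.9 and 18.4 CPM (log2 fold change 1.92), Heyl from 0.384 and 0.577 CPM to 7.39 and 6.92 CPM (3.89) and the ligand Jag1 by 1.08, while the ligands Jag2 and Dll1 and the receptor Notch1 fell by 1.58, 0.74 and 0.43. In the BMP and TGF-beta list 14 of 30 were higher, 7 lower and 9 not called, with a median of 0.29, against 10 and 1 with no scaling factors and 7 and 1 in the 1.5-fold test. Besides Grem1, the receptor Tgfbr2 rose from 31.1 and 27.0 CPM to 81.7 and 78.8 CPM (1.47) and Id4, a helix-loop-helix inhibitor, by 1.21, while the ligands Tgfb1 and Tgfb3 and the BMP readout Id1 fell by 0.87, 0.76 and 0.68. In the Wnt list 16 of 27 were higher, 6 lower and 5 not called, with a median of 0.39, against 11 and 2 with no scaling factors and 10 and 2 in the 1.5-fold test. The secreted antagonists Sfrp1, Dkk3 and Wif1 rose by 1.78, 1.72 and 1.78, the ligand Wnt7b fell from 259 and 294 CPM to 128 and 116 CPM (-1.18), and the feedback ligase Rnf43 fell by 2.20. Of 31 voltage-gated ion channel genes, 18 were higher, 5 lower and 8 not called, with a median of 0.68, against 14 and 0 with no scaling factors and 11 and 1 in the 1.5-fold test. Scn7a, the highest of these, reached 1 CPM only in 4OH-TAM. Cacng5, an AMPA receptor and calcium channel subunit, rose from 6.60 and 8.57 CPM to 40.1 and 37.0 CPM (2.35), Scn7a from 0.115 and 0.165 CPM to 7.35 and 7.08 CPM (5.64) and Kcnk1 by 1.21, while Kcnq5 and Cacnb3 fell by 0.53 and 0.40.

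The HER2CA day 15 libraries without 4OH-TAM share doxycycline and HER2CA with the 4OH-TAM libraries, and the direct test between them asks where 4OH-TAM cells differed. It called 80.5% of genes, 40.8% higher and 39.7% lower in 4OH-TAM. Both comparisons with control use the same 2 control libraries, so their values are set side by side and not correlated. In the astrocyte list 30 of 31 measured genes were higher in 4OH-TAM than in HER2CA day 15, and the median log2 fold change against control was 0.25 in 4OH-TAM and -1.98 in HER2CA day 15. In the interferon list 32 of 36 were higher than in HER2CA day 15, with medians against control of 1.75 and -0.41. In the oligodendrocyte list 22 of 24 were higher, with medians against control of 1.96 and -1.50. ATF4 members went the other way, 21 of 28 being lower in 4OH-TAM, with medians against control of 1.61 and 2.71. Atf4 stood at 771 and 842 CPM in HER2CA day 15, and the direct log2 fold change was -1.19 (SE 0.084). For glycolysis 13 of 17 were higher in 4OH-TAM than in HER2CA day 15, with medians against control of -0.99 and -1.59. Of ERK pathway outputs 18 of 24 were higher and 4 lower in 4OH-TAM, with medians against control of 0.38 and -0.94. Of YAP/TAZ targets 19 of 29 were higher and 4 lower in 4OH-TAM, with medians against control of 0.32 and -0.45. Ctgf stood at 1.05 and 1.24 CPM and Cyr61 at 34.9 and 54.5 CPM in HER2CA day 15, and both were higher in 4OH-TAM, by direct log2 fold changes of 4.48 (SE 0.17) and 1.31 (SE 0.14). Ajuba and Tead4 were lower in 4OH-TAM than in HER2CA day 15, by -0.97 and -1.84.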

How the data were processed

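The deposited table holds counts per gene for 8 libraries (4 groups of 2), made by the authors from stranded polyA RNA-seq, per the labels' protocols. FastQC, STAR 2.5.3a, featureCounts and the mm10 build are named in the submitters' processing notes, and the counting strand, annotation and handling of reads with several matches are not stated. Opposite-strand overlaps (among them Yap1, Erbb2, Gfap, Aqp4 and Fn1) are therefore uncertain. The total count per library was 15517708 to 28231426.

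Counts were fitted as deposited with edgeR 4.0.16 in R 4.3.3 (quasi-likelihood, trimmed mean of M values, 4 residual degrees of freedom, all 4 groups sharing 1 estimate of the spread, no block), and p-values were adjusted by Benjamini-Hochberg over 13607 genes at 0.05. The low-count filter removed 0 genes. The SE is the size of the log2 fold change over the root of the F statistic. Alternatives used other scaling factors, filters, DESeq2 1.42.0, a 1.5-fold test, a block and left-out libraries. In simulated data of 13521 genes for this comparison, only 50 genes at each fold size tried were changed. There 98% of 2-fold and 26% of 1.25-fold changes were recovered, and 8.18% of the calls were false. Far more genes were called in the real comparison, so that share of false calls does not carry over to it.

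Named genes are the floxed genes and Erbb2, the 12 largest changes each way at 5 CPM or more, the 10 with the most counts each way at 2-fold or more, and for each list the 3 lowest p each way and usual readouts. The rankings by size and by level took only called genes at 5 CPM or more whose groups did not overlap. Further members were named for their role after their values were seen. Members and lists were chosen with earlier results of these data known, and ATF4 promoters were added after values were seen. Positions are from GENCODE M21 (GRCm38), matched for 99.57% of symbols. Some members are not reported here.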

Additional observations from a re-analysis of the deposited data

Results flagged for a closer look

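For 10 of the 44 genes named by size or level, 4OH-TAM and HER2CA day 15 were both called against control, in opposite directions, and the direct test between them was called too, all by edgeR's quasi-likelihood test with Benjamini-Hochberg adjustment. The comparisons share the control libraries, and the direct test does not use them. The 44 genes were picked by their values in 4OH-TAM and control, and the direct test called 80.5% of all genes. How many of all genes show this pattern was not counted, so the count of 10 is a description. Bcas1, the oligodendrocyte gene, had a direct log2 difference of 7.29 (SE 0.20, adjusted p = 4.23e-13), from 5.67 against control in 4OH-TAM and -1.62 in HER2CA day 15. Lyz2, the myeloid lysozyme, had 4.16 (SE 0.096), from 3.55 and -0.61. The astrocyte genes Aqp4 (3.62, from 1.04 and -2.58), Slc1a2 (3.43, from 1.02 and -2.41), Gfap (3.19, from 1.36 and -1.83) and Glul (2.19, from 1.94 and -0.25) were higher than control in 4OH-TAM and lower in HER2CA day 15, as log2 fold changes. Ccnd1, the cyclin, had a direct difference of 2.98 (from 1.27 and -1.71), and Dhrs1 of 2.32 (from 1.26 and -1.06). Piwil2 was, of these 10, the gene with the reverse order, at -3.19, from -2.63 in 4OH-TAM and 0.56 in HER2CA day 15. Each of the 10 was higher, or for Piwil2 lower, in both 4OH-TAM libraries than in both HER2CA day 15 libraries. Scn7a, the sodium channel gene, had 377 counts in 4OH-TAM, 7 in control and 1 in HER2CA day 15, so its fitted values (direct log2 difference 8.17, and 5.64 and -2.53 against control) rest on few reads. The ratio of 4OH-TAM to HER2CA day 15 was 367 (95% interval 65.4 to 14517 from counting error only).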

How the results depend on the processing

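No gene called between 4OH-TAM and control changed the sign of that log2 fold change under an alternative that tested it. Values that were not called, and values of the direct test with HER2CA day 15, were not checked for sign. With no scaling factors 2654 genes were called (2115 higher, 539 lower), and 6375 between 4OH-TAM and HER2CA day 15, and Yap1 (-0.35) and Wwtr1 (-0.43) lost their calls. With the second gliomasphere library also left out, an alternative added after seeing the data, 8543 were called. In the test against a 1.5-fold change 2417 were called (1804 higher, 613 lower), and 6071 between 4OH-TAM and HER2CA day 15, and Yap1 (-0.42) and Wwtr1 (-0.50) were not called (adjusted p = 1 for both). With genes under 5 CPM in 2 libraries removed, fewer were tested, and 1011 were higher and 255 lower by 2-fold or more. DESeq2 called 7087 and upper-quartile factors 7951. Leaving out 1 library of the groups compared gave 6247 to 6798 calls, with Yap1 at -0.46 to -0.38 and Wwtr1 at -0.53 to -0.47. There the lone sample is assumed to vary like the other groups. With the replicate letter as a block, 8072 genes were called and 77 of the calls were lost. Same-lettered libraries of 4OH-TAM and control did not deviate together (correlation of deviations 0.0187). With 2 libraries per group, this does not settle if the letters mark a shared preparation. Depth limits genes of few control counts, such as Steap4.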

Other observations

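Further gene groups, chosen after values were seen, are given as counts and medians beside the median of 0.00 over all genes. Cytosolic aminoacyl-tRNA synthetases, which charge tRNAs and are partly ATF4 targets, were 14 higher, 3 lower and 3 not called of 20, with a median log2 fold change of 0.86. Cars rose from a mean of 48.4 to 145 CPM (1.58) and Iars from 98.2 to 292 CPM (1.57). Their mitochondrial counterparts were 2 higher, 3 lower and 12 not called of 17. Amino acid transporters were 16 higher and 5 lower of 23, and Slc7a1, the cationic amino acid transporter, rose from 34.6 to 250.9 CPM (2.86) and Slc7a3 from 0.620 to 9.30 CPM (3.90). Proteasome subunits were 28 lower, 1 higher and 8 not called of 37, with a median of -0.44, and none fell by 2-fold. Psma1 fell from 136 to 79.7 CPM. Of 20 heat shock chaperones 15 were lower and 0 higher. Cryab, a small chaperone of astrocytes, fell from 601 and 624 CPM to 190.4 and 162 CPM (-1.80), and Hspb6 by 1.82 on the log2 scale. Ribosomal protein genes (74) were 18 lower, 4 higher and 52 not called, beside 28.2% lower and 31.0% higher of all genes, and complex I subunits (35) were 15 lower and 20 not called.

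Genes of synapse and transport also moved. Glutamate receptor genes were 13 higher, 4 lower and 4 not called of 21 (Grm7 reached 1 CPM only in 4OH-TAM), with a median log2 fold change of 0.92. Grm5, a metabotropic receptor of immature astrocytes and progenitors, rose from 0.960 and 0.989 CPM to 18.0 and 24.3 CPM (4.43), and the AMPA receptor gene Gria1 from 20.1 to 82.6 CPM (2.04). Protocadherins were 29 higher and 8 lower of 54, and Pcdh15 rose from 0.398 to 12.6 CPM (4.96). Of 5 measured organic anion transporters 3 were higher, of which Slco1a4 reached 1 CPM only in 4OH-TAM, with Slco1c1, a thyroid hormone transporter, rising from 3.72 and 2.84 CPM to 59.9 and 66.4 CPM (4.26), and Slco5a1 falling by 1.30 on the log2 scale.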
